A study of Homo sapiens with 27 samples.

Results

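The 33 genes described here carry out homologous recombination, the Fanconi anaemia pathway of crosslink repair, and the first steps of the DNA damage checkpoint. They were listed by gene symbol, with earlier results of these data known, and all 33 were found among the 20987 genes of the expression table. Poly(A) RNA of 3 human prostate cancer cell lines was sequenced in 27 libraries after 6 days with IPI-9119, which blocks fatty acid synthase, the enzyme that makes palmitate. Each line received the drug at 500 nM or 100 nM, or the vehicle DMSO, with 3 libraries for each of the 9 groups and no change of medium over the 6 days. LNCaP95, derived from LNCaP by culture without androgen, and 22Rv1, from a relapsed xenograft, are labelled castration resistant. LNCaP came from a metastasis in a lymph node and carries the label androgen sensitive. Each is a single established line, and detached cells in the medium were collected with the rest, per the labels' protocols. Whether the replicates come from separate cultures is not stated in the labels, so the p-values reflect the spread of these libraries alone, and that spread may be technical.

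In homologous recombination a broken end is cut back to single-stranded DNA, on which BRCA2, with the help of BRCA1, PALB2 and further recombination factors, prepares the search for an intact copy. In the Fanconi pathway a core complex marks the FANCD2-FANCI pair with ubiquitin, which starts the unhooking of crosslinked strands. The kinases ATM and ATR sense breaks and stalled forks and act through CHEK2 and CHEK1, and inherited or acquired loss of BRCA2, ATM and related genes is known in prostate cancer.

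Libraries held 14757874 to 26578881 reads in genes, and mitochondrially encoded genes took 1.69% to 7.56% of the counts. The luminal prostate genes KLK3, HOXB13, KRT8, KRT18, EPCAM and FOLH1 were detected in every library, with the lowest value, 379 normalised counts, for KLK3 in 22Rv1. Of 14 markers of other cell types, 1 to 9 were at 0 in a library, and their summed level was 252 to 1032 normalised counts. In LNCaP95, PTPRC, a leukocyte marker, had 65.4 to 139.0 normalised counts while the T cell marker CD3E was at 0. LNCaP DMSO replicate 1 stood apart: the 33 genes had a mean log2 level of 8.85 in it, against 8.45 and 8.37 in replicates 2 and 3, and 20 proliferation genes had 10.19, against 8.998 and 8.866. At 100 nM replicate 1 of LNCaP was the low one, with 8.80 for the 33 genes against 9.20 and 9.33. The proliferation genes had 10.38 in it, against 11.05 and 10.99. Across the LNCaP libraries of replicate 1 the mean of the 33 genes did not rise, with 8.85 (DMSO), 8.80 (100 nM) and 8.79 (500 nM). Results in LNCaP are therefore also given with replicates 2 and 3 of each LNCaP group only. DMSO replicate 1 was singled out by its high level of these same genes, so leaving it out raises their log2 fold changes. Leaving out replicate 1 of 100 nM, the lowest of its group, raises them further at that dose. Those results are a description and no added support for a rise. In 22Rv1 the DMSO library of replicate 3 detected 18444 genes, against at most 15962 in the other libraries of the line.

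All 33 genes passed the filter on low values in every comparison. Values are the deposited normalised counts, read counts that were scaled by a size factor for each library. A gene was called higher or lower at an adjusted p under 0.05 with limma, fitted to log2(value + 1) over all genes and adjusted over all of them. The number after ± is the standard error of a log2 fold change unless it is called an SD. Over the 6 comparisons of a dose with DMSO, 28 of the 33 genes were called at least once and 21 were called higher in 1 comparison or more and lower in another. FANCE, FANCF, FANCL, NBN and RAD51D were called in none. The counts of 28 and 21 are given without a counterpart over all genes. At 500 nM 24.1% of all genes tested were called lower and 28.2% higher in LNCaP95, and 3.5% and 3.47% in 22Rv1. These are shares of single comparisons. Whether being called at least once is particular to the 33 genes was not tested. With the replicate number as a block in the fit, FANCE was called lower at 500 nM in LNCaP95 and in LNCaP, and FANCL at 500 nM in LNCaP95, while FANCF, NBN and RAD51D were still called in none. Both doses of a line share its 3 DMSO libraries. EXO1, RAD51AP1, FANCI, CHEK1 and RBBP8 were called in 5 of the 6 comparisons.

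The promoter windows of EXO1, RAD51AP1, CHEK1 and RBBP8 are shown because these genes were called most often, and because most of the 33 genes moved together in LNCaP95. Each window runs from 250 bases before to 50 bases after an annotated start, from RefSeq on GRCh38.p14, on the plus strand and 5′ to 3′. Where several starts are listed, as for EXO1, CHEK1 and RBBP8, the first is given. EXO1 lies at chr1:241847954-241848253, RAD51AP1 at chr12:4538640-4538939, CHEK1 at chr11:125625979-125626278 and RBBP8 at chr18:22933078-22933377. Capitals mark the E2F site in EXO1 and the CCAAT box, read on the other strand, in RAD51AP1 and CHEK1.
EXO1: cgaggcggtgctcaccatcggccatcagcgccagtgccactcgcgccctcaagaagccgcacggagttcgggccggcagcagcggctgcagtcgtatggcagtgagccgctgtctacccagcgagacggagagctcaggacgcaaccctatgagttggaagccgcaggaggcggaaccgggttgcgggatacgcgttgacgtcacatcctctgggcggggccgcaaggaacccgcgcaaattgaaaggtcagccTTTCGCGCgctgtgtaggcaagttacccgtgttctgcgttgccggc
RAD51AP1: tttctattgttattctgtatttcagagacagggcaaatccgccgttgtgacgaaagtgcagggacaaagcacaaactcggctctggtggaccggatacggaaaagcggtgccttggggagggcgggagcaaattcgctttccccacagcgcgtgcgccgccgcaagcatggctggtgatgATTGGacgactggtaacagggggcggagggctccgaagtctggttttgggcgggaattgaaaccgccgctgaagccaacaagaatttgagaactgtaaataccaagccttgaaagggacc
CHEK1: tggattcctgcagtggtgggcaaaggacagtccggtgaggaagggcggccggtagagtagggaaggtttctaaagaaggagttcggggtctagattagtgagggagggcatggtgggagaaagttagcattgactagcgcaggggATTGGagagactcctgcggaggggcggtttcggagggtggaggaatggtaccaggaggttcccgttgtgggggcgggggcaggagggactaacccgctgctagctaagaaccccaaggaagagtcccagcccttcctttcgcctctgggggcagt
RBBP8: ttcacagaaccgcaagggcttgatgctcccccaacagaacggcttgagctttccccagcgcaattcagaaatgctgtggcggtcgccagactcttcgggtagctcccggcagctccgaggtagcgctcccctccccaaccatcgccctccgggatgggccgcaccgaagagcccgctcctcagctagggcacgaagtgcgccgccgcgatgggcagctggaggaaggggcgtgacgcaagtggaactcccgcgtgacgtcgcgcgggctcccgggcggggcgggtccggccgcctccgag
The E2F site was searched on both strands as TTTCCCGC, TTTCGCGC, TTTGCCGC or TTTGGCGC, letters bound by the E2F factors of S phase genes. It was found in windows of 5 of the 30 members in the table, without RAD54B, NBN and FANCI (16.7%): EXO1, FANCA, FANCC, FANCD2 and XRCC2. It was found for 4.0% of all 27305 genes in the table. A CCAAT box was found for 15 of 30 members and 39.7% of all genes. The cell cycle homology region, TTCGAA or TTTGAA, was found for 4 of 30 members (13.3%) and 19.5% of all genes. The motifs do not overlap each other in the printed windows. Genes with several starts have several windows, in any of which a match was counted, and a match is a description of these letters and not a bound site.

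Most of the 33 genes were lower in drug-treated LNCaP95 than in its DMSO libraries. At 500 nM 26 of the 33 fell and 0 rose, where 24.1% of all genes tested were called lower and 28.2% higher. The median log2 fold change of the 33 genes was -1.09, against 0.03 over all genes. Under 100 nM 26 fell and 1 rose, with 24.1% of all genes lower and 28.2% higher, and the median was again -1.09. In bulk RNA, fewer cells of a type and less RNA per cell cannot be told apart. Leaving out 1 library at a time, 25 to 28 genes were called at 500 nM and 24 to 28 at 100 nM. With the replicate block, for which the libraries of LNCaP95 with the same number deviated together, 28 fell and 1 rose at 500 nM, where 28.1% of all genes were called lower and 32.5% higher. The 3 genes called in addition were FANCE, FANCL and ATM. Mitochondrially encoded genes took 6.92% of the counts in replicate 2 at 500 nM and 7.56% in replicate 2 at 100 nM, against 1.78% to 3.19% with DMSO. Without replicate 2 of 500 nM 25 genes fell at that dose, and without replicate 2 of 100 nM 24 fell at that one. All 26 genes that fell at 500 nM lay in each treated library below every DMSO library, a separation seen in 27.3% of all genes tested.

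All 5 genes of the BRCA1 and BRCA2 mediators fell in LNCaP95 at both doses. BRCA1, the scaffold and ubiquitin ligase that promotes end resection, had 1386, 1525 and 1426 normalised counts in the 3 DMSO libraries, 502, 624 and 610.0 at 100 nM and 476, 559 and 611 at 500 nM. The treated libraries did not overlap the DMSO libraries, and the log2 fold change was -1.40 ± 0.11, adjusted p = 5.42e-07 at 500 nM. BRCA2, a central mediator of strand invasion, had 876, 1003 and 871 with DMSO, 330.5, 423 and 363 at 100 nM and 285, 446 and 365 at 500 nM, a log2 fold change at 500 nM of -1.35 ± 0.14, adjusted p = 6.57e-06. BRIP1, a helicase that binds BRCA1, had 572, 502 and 594 with DMSO, 204, 277 and 247 at 100 nM and 176, 232 and 234 at 500 nM, with -1.38 ± 0.14, adjusted p = 4.06e-06. Every treated library of these genes lay below every DMSO library. BARD1, the obligate partner of BRCA1, had 4400.3, 4774 and 4637 with DMSO, 2990.2, 3346 and 3242 at 100 nM and 2838, 3386 and 3141 at 500 nM, and its fall was smaller (-0.56 ± 0.08, adjusted p = 5.77e-05 at 500 nM). PALB2, which bridges BRCA1 and BRCA2, had the smallest change of the group (-0.30 ± 0.11, adjusted p = 0.0338 at 500 nM).

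Of the 7 recombination factors, 6 fell in LNCaP95 at each dose. XRCC2 and XRCC3 act in different complexes of recombination factors. XRCC2 had 156, 215 and 171 normalised counts with DMSO, 63.7, 67.7 and 60.7 at 100 nM and 45.3, 71.0 and 68.9 at 500 nM (-1.55 ± 0.19, adjusted p = 1.92e-05 at 500 nM). XRCC3 had 399.7, 439.8 and 415 with DMSO, 139, 136 and 161 at 100 nM and 143, 140.0 and 181 at 500 nM (-1.44 ± 0.12, adjusted p = 1.31e-06 at 500 nM). RAD54L and RAD54B encode motor proteins that remodel DNA during strand exchange. RAD54L had 872, 1117 and 895 with DMSO, 316, 350.2 and 349 at 100 nM and 329, 360.3 and 377 at 500 nM (-1.43 ± 0.10, adjusted p = 4.51e-07 at 500 nM). RAD54B had 368, 459 and 389 with DMSO, 126, 165 and 165 at 100 nM and 142, 205 and 202 at 500 nM (-1.16 ± 0.16, adjusted p = 4.95e-05 at 500 nM). Both motor genes lay lower in every treated library than in any DMSO library. RAD51AP1, which stimulates strand exchange, had 535, 686 and 620.1 with DMSO, 202, 247 and 254 at 100 nM and 209, 287 and 285 at 500 nM (-1.24 ± 0.14, adjusted p = 1.14e-05 at 500 nM). RAD51C, a subunit of both complexes, had 1823, 1919.8 and 1986 with DMSO, 1379, 1392 and 1269.9 at 100 nM and 1296, 1450.4 and 1445 at 500 nM, and a smaller fall (-0.45 ± 0.07, adjusted p = 1.85e-04 at 500 nM). For each of these 6 genes no treated library reached a DMSO library. RAD51D, a subunit of the complex that holds XRCC2, was not called (-0.09 ± 0.18, adjusted p = 0.685 at 500 nM).

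The genes of end sensing and resection split in LNCaP95. EXO1, an exonuclease of long-range resection whose promoter is shown above, had 1355, 1633 and 1573 normalised counts with DMSO, 459.9, 559 and 542 at 100 nM and 388, 563 and 561 at 500 nM (-1.61 ± 0.14, adjusted p = 1.20e-06 at 500 nM). BLM, the Bloom syndrome helicase, had 546, 611 and 621 with DMSO, 175, 202 and 224 at 100 nM and 128, 226 and 214 at 500 nM, and the largest fall of the 33 genes (-1.68 ± 0.18, adjusted p = 6.72e-06 at 500 nM). RBBP8, which encodes CtIP, the factor that starts resection, had 2636, 3018 and 2869.7 with DMSO, 2051, 2115 and 1883 at 100 nM and 1828, 1983 and 2015 at 500 nM (-0.55 ± 0.08, adjusted p = 5.27e-05 at 500 nM). The treated and DMSO libraries of these 3 genes did not overlap. Of the MRN complex that binds broken ends, only the nuclease gene MRE11A fell (-0.64 ± 0.15, adjusted p = 0.00234 at 500 nM). RAD50, its structural partner, had 1192, 1104 and 1389.7 with DMSO, 1420.5, 1259.9 and 1296 at 100 nM and 1367, 1158 and 1432 at 500 nM. The groups overlapped for RAD50 (0.10 ± 0.10, adjusted p = 0.404 at 500 nM) and for NBN, the third subunit (0.09 ± 0.09, adjusted p = 0.415 at 500 nM).

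Of the 9 Fanconi core complex and E2 genes, 6 fell at each dose in LNCaP95, and both genes of the FANCD2-FANCI pair fell. UBE2T, the enzyme that passes ubiquitin to FANCD2 and FANCI, had 1027, 861 and 861 normalised counts with DMSO, 379, 431 and 304 at 100 nM and 373, 487 and 358 at 500 nM (-1.18 ± 0.14, adjusted p = 1.59e-05 at 500 nM). FANCD2 had 1580.3, 2036 and 1844 with DMSO, 650.0, 759 and 832 at 100 nM and 563, 758 and 849 at 500 nM (-1.34 ± 0.14, adjusted p = 6.39e-06 at 500 nM). FANCI had 2848, 3065 and 2989 with DMSO, 1112, 1178 and 1371 at 100 nM and 1009, 1254 and 1348 at 500 nM (-1.31 ± 0.10, adjusted p = 8.28e-07 at 500 nM). None of the treated libraries reached a DMSO library for these 3 genes. The other core genes that fell were FANCB, FANCM, the translocase that anchors the complex to DNA, FANCC, FANCA and FANCG, with log2 fold changes at 500 nM of -1.33, -1.09, -1.05, -0.996 and -0.88. FANCL, the ubiquitin ligase of the complex, was not called (-0.27 ± 0.12, adjusted p = 0.074 at 500 nM), nor were FANCE (-0.34 ± 0.16, adjusted p = 0.0895) and FANCF (0.01 ± 0.10, adjusted p = 0.946). With the replicate block FANCL (-0.27 ± 0.10, adjusted p = 0.0286) and FANCE (-0.34 ± 0.13, adjusted p = 0.0348) were called lower by limma at 500 nM.

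Both effector kinases fell in LNCaP95. CHEK1, the effector of ATR, had 1470.3, 1661 and 1733 normalised counts with DMSO, 568, 717 and 707 at 100 nM and 545, 697 and 750.0 at 500 nM (-1.30 ± 0.12, adjusted p = 2.70e-06 at 500 nM). CHEK2, the effector of ATM, had 895, 981 and 964 with DMSO, 304, 409.6 and 414 at 100 nM and 290.0, 366 and 398 at 500 nM (-1.44 ± 0.13, adjusted p = 2.36e-06 at 500 nM). Neither gene had a treated library that reached a DMSO library. ATR fell less, by 0.37 ± 0.09 on the log2 scale at 500 nM (limma adjusted p = 0.00405). ATM went the other way at 100 nM, with 561, 568 and 487 at that dose against 436, 478 and 391 with DMSO. Its 100 nM libraries lay above the DMSO libraries (0.31 ± 0.10, adjusted p = 0.0202), while its 500 nM libraries, 542, 498 and 464, overlapped them (0.21 ± 0.10, adjusted p = 0.103). With the replicate block ATM was called higher at 500 nM too (0.21 ± 0.07, adjusted p = 0.0264 by limma).

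**Figure D1:**
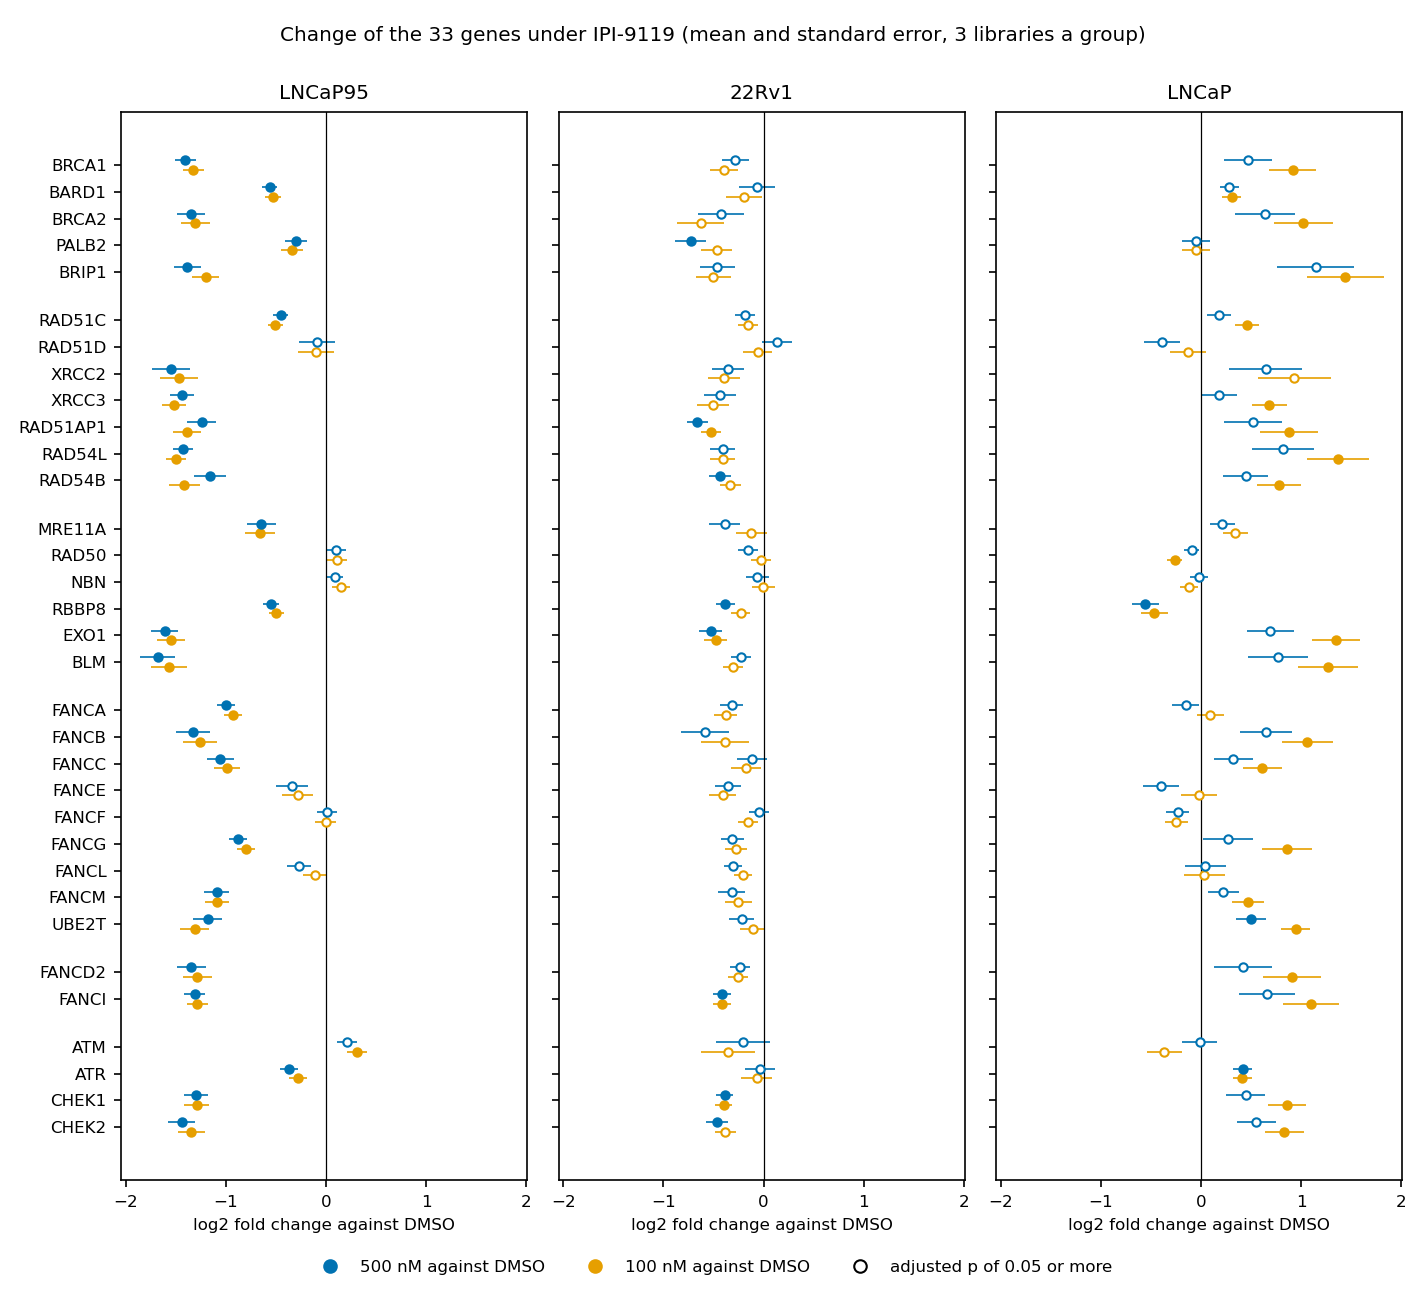
Log2 fold change against DMSO (x axis) of each of the 33 genes (y axis, grouped by role) in LNCaP95, 22Rv1 and LNCaP, at 500 nM (blue) and 100 nM (orange). Points are estimates, bars are standard errors with 3 libraries a group, and filled points have an adjusted p under 0.05. In LNCaP95, 26 genes at each dose are filled and left of 0. In 22Rv1 8 genes at 500 nM and 4 at 100 nM are filled and left of 0, and in LNCaP 21 genes at 100 nM are filled and right of 0.

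Proliferation genes moved with the repair genes in LNCaP95. Of 20 proliferation genes (cell cycle and replication genes outside the 33), 20 fell at 500 nM, with a median log2 fold change of -1.42. Their mean log2 level was 9.84 to 10.27 at 500 nM, against 11.53 to 11.65 with DMSO, and that of the 33 genes was 8.44 to 8.71, against 9.41 to 9.60. The part of the proliferation genes in the fall of the 33 genes was not tested. The summed level of the 14 markers of other cell types was 707 to 924 at 500 nM, against 741 to 1032 with DMSO, and 0 of the 5 tested were called.

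Further genes of the same processes were read from lists outside the 33. Over all genes tested in LNCaP95 at 500 nM, 24.1% were called lower and 28.2% higher, and counts of short lists near these shares are not particular to a list. Of 25 other homologous recombination genes tested of 26 listed, 14 fell and 5 rose in LNCaP95 at 500 nM (median log2 fold change -0.49), including POLQ, the polymerase of theta-mediated joining (-1.51 ± 0.11), DNA2, a resection nuclease (-1.59 ± 0.15), and RMI2, a partner of BLM (-1.44 ± 0.14). Of 11 other Fanconi pathway genes tested of 12, 4 fell and 0 rose (median -0.13), STRA13, MAD2L2, C19orf40 and USP1, with USP1, the enzyme that removes ubiquitin from FANCD2, at -0.27 ± 0.09. Of 25 other checkpoint and damage response genes, 17 fell and 4 rose (median -0.49), with CLSPN, the adaptor between ATR and CHEK1, at -1.61 ± 0.11 and TOPBP1, an activator of ATR, at -0.81 ± 0.08. Of 10 end joining genes, 7 fell and 1 rose (median -0.42), with PRKDC, the catalytic subunit of DNA-dependent protein kinase, at -0.80 ± 0.16. Of 7 mismatch repair genes, 3 fell and 1 rose (median -0.14), and of 11 nucleotide excision repair genes, 5 fell and 3 rose (median -0.13). Of 13 p53 targets, 8 rose and 3 fell (median 0.42), with CDKN1A, the cyclin-dependent kinase inhibitor p21, at 1.21 ± 0.09.

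**Figure D2:**
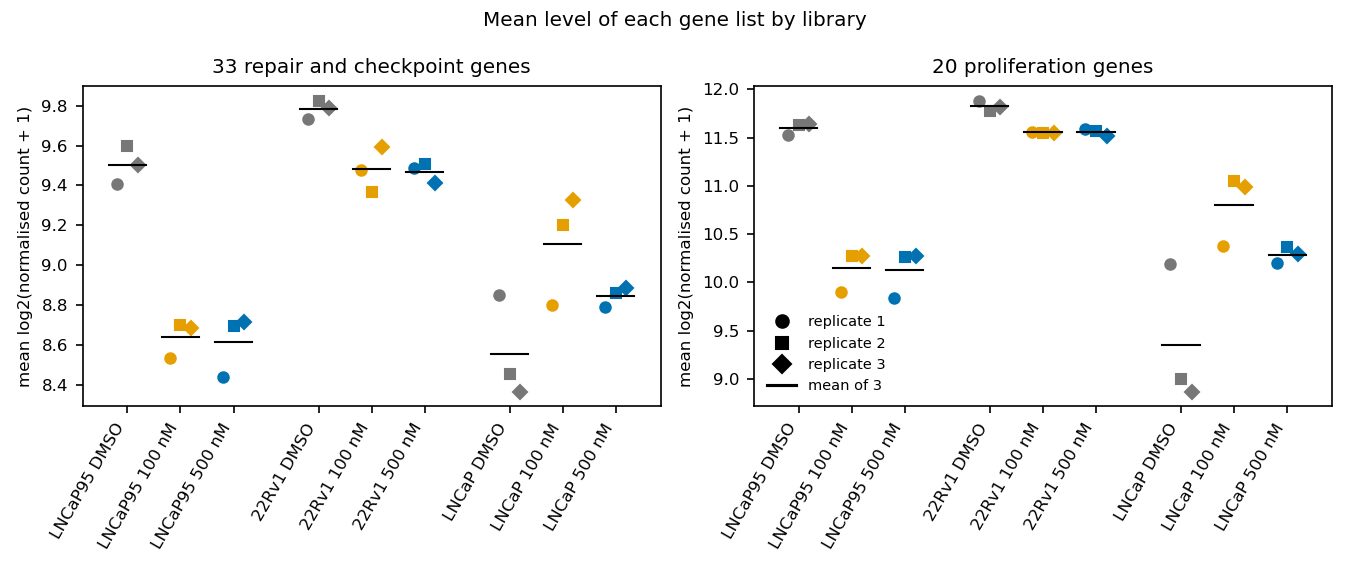
Mean log2(normalised count + 1) in each library (y axis) of the 33 genes and of 20 proliferation genes, by line and dose (x axis). Symbols are replicates and lines are the mean of 3. In LNCaP95 the treated libraries lie at 8.44 to 8.71 for the 33 genes and the DMSO libraries at 9.41 to 9.60, and LNCaP DMSO replicate 1, at 8.85, lies above the other LNCaP DMSO libraries. LNCaP 100 nM replicate 1, at 8.80, lies below the other LNCaP libraries of that dose.

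In 22Rv1 fewer of the 33 genes fell than in LNCaP95, and none was called higher by limma. At 500 nM 8 of the 33 fell and 0 rose, where 3.5% of all genes tested were called lower and 3.47% higher, and 32 of the 33 had a negative log2 fold change (median -0.32, against -0.002 over all genes). At 100 nM 4 fell and 0 rose, where 3.36% of all genes were called lower and 3.19% higher, and 33 of 33 estimates were negative (median -0.33). At 500 nM the 3 treated libraries of 21 genes lay below all 3 DMSO libraries, a separation seen in 16.0% of all genes. These counts depended on single libraries. Without 1 library at a time the 500 nM count was 1 to 7 (1 without DMSO replicate 2, 4 without DMSO replicate 3, 3 without replicate 1 of 500 nM, and 1 without either replicate 2 or replicate 3 of 500 nM). The 100 nM count was 0 to 9 (0 without DMSO replicate 2, 2 without DMSO replicate 3, 0 without replicate 1 of 100 nM, and 9 without replicate 3 of 100 nM). The median over the 33 genes stayed between -0.355 and -0.312 at 500 nM, and between -0.351 and -0.235 at 100 nM. With libraries scaled to the same total 12 fell and 0 rose at each dose. In that fit 6.85% of all genes were called lower and 2.49% higher at 500 nM (median of all genes -0.089), and 5.71% lower and 2.10% higher at 100 nM (median of all genes -0.104).

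The largest fall in 22Rv1 was that of PALB2, with 345, 461 and 428 normalised counts with DMSO, 263, 282 and 346 at 100 nM and 279, 234 and 228 at 500 nM (-0.73 ± 0.15, adjusted p = 0.0142 at 500 nM). Its 500 nM libraries lay below the DMSO libraries, and one 100 nM library, at 346, overlapped them. RAD51AP1 had 1273, 1192 and 1132 with DMSO, 784, 807 and 913 at 100 nM and 777, 808 and 690.3 at 500 nM (-0.66 ± 0.10, adjusted p = 0.00314 at 500 nM). EXO1 had 1404, 1294 and 1225 with DMSO, 980.5, 933 and 902 at 100 nM and 1025, 936 and 771 at 500 nM (-0.53 ± 0.11, adjusted p = 0.0173 at 500 nM). For both genes all 6 treated libraries lay below the DMSO libraries, as they did for FANCI and CHEK1. FANCI had 5200.4, 5067 and 5022 with DMSO, 3906, 3466 and 4128 at 100 nM and 3865, 3902 and 3709 at 500 nM (-0.41 ± 0.09, adjusted p = 0.0159 at 500 nM). CHEK1 had 1645, 1653 and 1482 with DMSO, 1185, 1195 and 1240.3 at 100 nM and 1242, 1243 and 1162 at 500 nM (-0.39 ± 0.09, adjusted p = 0.0214 at 500 nM). The remaining 3 genes fell at 500 nM and were not called at 100 nM, and for each of them the 500 nM libraries lay below the DMSO libraries. CHEK2 had 808, 827 and 728 at 500 nM against 1166, 1087 and 1009.7 with DMSO (-0.47 ± 0.11, adjusted p = 0.0221). RAD54B had 708, 696 and 580.5 at 500 nM against 863, 849.9 and 959 with DMSO (-0.43 ± 0.11, adjusted p = 0.0305). RBBP8 had 2666, 2699 and 2347 at 500 nM against 3384, 3539 and 3119 with DMSO (-0.38 ± 0.09, adjusted p = 0.0293).

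BARD1, RAD50, UBE2T and RAD51C were not called in 22Rv1. BARD1 had 388, 376 and 315 normalised counts at 500 nM against 297, 435 and 406 with DMSO (-0.06 ± 0.18, adjusted p = 0.871). RAD50 had 3468, 3643 and 3115 at 500 nM against 3769, 4136 and 3505 with DMSO (-0.16 ± 0.10, adjusted p = 0.375). UBE2T had 2781, 2573 and 2498 at 500 nM against 3607, 2557 and 3048 with DMSO (-0.22 ± 0.13, adjusted p = 0.331). The groups of all 3 genes overlapped. RAD51C had 1296, 1165 and 1087 at 500 nM against 1439, 1288 and 1290.2 with DMSO (-0.18 ± 0.10, adjusted p = 0.312). Of the 20 proliferation genes 5 fell and 0 rose at 500 nM (median -0.29), and their mean log2 level was 11.52 to 11.59, against 11.78 to 11.89 with DMSO; their part in the fall of the repair genes was not tested. Of the further lists in 22Rv1 at 500 nM, 5 of 25 other homologous recombination genes tested fell and 0 rose (median -0.24), including EME1, a subunit of a junction nuclease (-0.59 ± 0.12), and DNA2 (-0.59 ± 0.15). Among 25 other checkpoint genes 4 fell and 1 rose (median -0.21), and 0 of 11 other Fanconi genes were called by limma. Over all genes tested, 3.5% were called lower and 3.47% higher at this dose.

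In LNCaP most of the 33 genes were higher with the drug at 100 nM. At that dose 21 of the 33 rose and 2 fell, where 13.7% of all genes tested were called higher and 11.6% lower (median 0.68, against -0.003 over all genes). At 500 nM 2 rose and 1 fell, where 11% were called higher and 9.83% lower (median 0.32, against -0.007 over all genes). With libraries scaled to the same total, 2 rose and 0 fell at 500 nM, and 19 rose and 0 fell at 100 nM. In that fit 14.3% of all genes were called higher and 6.42% lower at 500 nM (median of all genes 0.06), and 16.4% higher and 8.55% lower at 100 nM (median of all genes 0.04). The counts depended on the libraries used. With replicates 2 and 3 of LNCaP only, 19 rose and 1 fell at 500 nM, where 16.1% of all genes were called higher and 13.6% lower. With these libraries 22 rose and 2 fell at 100 nM, where 18.8% were called higher and 17.1% lower. The DMSO library left out here was singled out by its high level of the 33 genes, so more higher calls were built into this choice. The 100 nM library left out with it had the lowest mean of the 33 genes at that dose. In replicate 1 alone that mean did not rise, with 8.85 (DMSO) and 8.80 (100 nM). Without 1 library at a time 0 to 17 genes were called at 500 nM (17 without DMSO replicate 1, 1 without DMSO replicate 2, 0 without DMSO replicate 3 and 1 without 500 nM replicate 1). At 100 nM 6 to 24 were called (9 without DMSO replicate 2, 7 without DMSO replicate 3, 6 without replicate 2 of 100 nM, and 12 without replicate 3 of 100 nM). The median over the 33 genes was 0.191 (without DMSO replicate 3) to 0.515 (without DMSO replicate 1) at 500 nM, and 0.557 (without replicate 3 of 100 nM) to 0.881 (without DMSO replicate 1) at 100 nM. At 500 nM the treated libraries of 11 genes lay above, and of 2 below, every DMSO library, where 19.6% and 21.3% of all genes did so. At 100 nM those of 10 genes lay above and of 2 below, where 18.2% and 18.6% of all genes did so. The groups of the other 21 genes overlapped at 100 nM.

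Of the BRCA1 and BRCA2 mediators, 4 of 5 rose in LNCaP at 100 nM. BRIP1 had 237, 78.7 and 69.96 normalised counts with DMSO, 204, 345 and 377 at 100 nM and 229.8, 239.6 and 261 at 500 nM, and the largest rise (1.44 ± 0.39, adjusted p = 0.0199 at 100 nM). The groups overlapped through replicate 1, the first value of each group, which was lower at 100 nM (204) and 500 nM (229.8) than with DMSO (237). BRCA2 had 270.1, 165 and 158 with DMSO, 250.4, 380.2 and 624 at 100 nM and 263, 276 and 364 at 500 nM (1.02 ± 0.30, adjusted p = 0.0286 at 100 nM). BRCA1 had 767, 528 and 439 with DMSO, 721, 1160.0 and 1423 at 100 nM and 734, 769 and 831 at 500 nM (0.91 ± 0.24, adjusted p = 0.0174 at 100 nM). For BRCA2 and BRCA1 too, replicate 1 was lower at both doses than with DMSO, and the groups overlapped. BARD1 had 2546, 2523 and 2866 at 100 nM against 1937, 2269.7 and 2215 with DMSO, without overlap, and the smallest rise of the 4 (0.31 ± 0.09, adjusted p = 0.0359).

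Among the recombination factors 5 of 7 rose in LNCaP at 100 nM: RAD54L, RAD51AP1, RAD54B, XRCC3 and RAD51C. RAD54L had 443, 212 and 146 normalised counts with DMSO, 502, 712 and 664 at 100 nM and 430.0, 472 and 372 at 500 nM (1.37 ± 0.31, adjusted p = 0.00987 at 100 nM). Its 100 nM libraries lay above the DMSO libraries and its 500 nM libraries overlapped them. RAD51C had 1178, 1661 and 1556 at 100 nM against 1099, 1034 and 1025 with DMSO (0.46 ± 0.12, adjusted p = 0.0169), again without overlap. In resection, EXO1 had 264, 167 and 145 with DMSO, 335, 557 and 571 at 100 nM and 281, 296 and 326 at 500 nM (1.35 ± 0.24, adjusted p = 0.00268 at 100 nM). All 6 treated libraries of EXO1 lay above the DMSO libraries, although the 500 nM comparison was not called (0.69 ± 0.24, adjusted p = 0.0607). BLM had 218, 127 and 91.9 with DMSO, 224, 407 and 395 at 100 nM and 207, 244 and 250.9 at 500 nM (1.27 ± 0.30, adjusted p = 0.0108 at 100 nM). The 100 nM libraries of BLM lay above those with DMSO, by a small margin over DMSO replicate 1.

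RBBP8 fell in LNCaP at both doses. It had 956, 1146 and 1222 normalised counts with DMSO, 668, 834 and 907 at 100 nM and 668, 806 and 783 at 500 nM. Its 6 treated libraries lay below the DMSO libraries, with log2 fold changes of -0.56 ± 0.13, adjusted p = 0.0146 at 500 nM and -0.47 ± 0.13, adjusted p = 0.0268 at 100 nM. The call was lost with libraries scaled to the same total, where the log2 fold changes were -0.48 (adjusted p = 0.0546) at 500 nM and -0.43 (adjusted p = 0.0748) at 100 nM by limma. RAD50 fell at 100 nM, with 1824, 1695 and 1793 against 2006, 2189 and 2178 with DMSO (-0.26 ± 0.08, adjusted p = 0.0283). These groups did not overlap, and its call too was lost with libraries scaled to the same total (-0.22, adjusted p = 0.0827).

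In the Fanconi pathway 5 of 9 core complex and E2 genes rose in LNCaP at 100 nM, and both FANCI and FANCD2 did. UBE2T rose at both doses, with 773, 625 and 597 normalised counts with DMSO, 988, 1409 and 1473 at 100 nM and 919.8, 975 and 900.1 at 500 nM (0.49 ± 0.15, adjusted p = 0.0377 at 500 nM and 0.94 ± 0.15, adjusted p = 0.00153 at 100 nM). Every treated library of UBE2T lay above every DMSO library. FANCI had 1903, 960.4 and 786 with DMSO, 1759, 2672 and 3023 at 100 nM and 1659.6, 1810.1 and 1879 at 500 nM (1.10 ± 0.28, adjusted p = 0.0156 at 100 nM). FANCD2 had 1387, 606 and 553 with DMSO, 1132, 1574 and 1732 at 100 nM and 942, 1079.7 and 1094 at 500 nM (0.91 ± 0.29, adjusted p = 0.0383 at 100 nM). For FANCI and FANCD2, DMSO replicate 1 lay above all 500 nM libraries and above replicate 1 of 100 nM, and the groups overlapped at both doses. FANCB, on which the core complex depends, had 62.3, 29.4 and 44.0 with DMSO, 74.2, 94.7 and 108 at 100 nM and 67.3, 71.2 and 66.2 at 500 nM (1.06 ± 0.26, adjusted p = 0.0128 at 100 nM). The other core genes called higher at 100 nM were FANCG, FANCC and FANCM.

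ATR rose in LNCaP at both doses, with 1036, 1138 and 996 normalised counts with DMSO, 1429, 1242 and 1563 at 100 nM and 1428, 1387 and 1410.2 at 500 nM (0.42 ± 0.10, adjusted p = 0.0122 at 500 nM and 0.41 ± 0.10, adjusted p = 0.0112 at 100 nM). CHEK1 had 511, 374 and 291 with DMSO, 547, 791 and 770.1 at 100 nM and 523, 518 and 519 at 500 nM (0.86 ± 0.19, adjusted p = 0.00887 at 100 nM). In both genes the 6 treated libraries lay above the DMSO libraries, for CHEK1 at 500 nM by a small margin over DMSO replicate 1. CHEK2 rose at 100 nM (0.83 ± 0.19, adjusted p = 0.0103), while ATM was not called (-0.37 ± 0.17, adjusted p = 0.141 at 100 nM).

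Proliferation genes moved in the same direction in LNCaP. Of the 20, 19 rose at 100 nM (median 1.42) and 10 rose at 500 nM (median 0.90), with none lower by limma. Their mean log2 level was 10.38 to 11.05 at 100 nM and 10.20 to 10.37 at 500 nM, against 8.87 to 10.19 with DMSO. Markers of other cell types also moved with the groups: of the 14, 5 were tested at 500 nM, of which 3 rose and 1 fell, with CD68, a macrophage marker also found in other cells, at 1.92 ± 0.29. Over all genes tested at that dose, 11% were called higher and 9.83% lower. The summed level of the 14 markers was 752 to 888 normalised counts at 500 nM, against 483 to 642 with DMSO. COL1A1 and VWF made up most of it, with medians over the LNCaP libraries of 344 and 314, against 71.0 for CD68. TP63, COL1A2, DCN, PECAM1 and CDH5 were at 0 in every LNCaP library. The part of either list in the rise of the repair genes was not tested. Among the further lists at 100 nM, 9 of 24 other homologous recombination genes tested rose and 2 fell (median 0.29), with POLQ at 1.43 ± 0.31. Of 25 other checkpoint and damage genes 8 rose and 2 fell (median 0.29), with CLSPN at 2.03 ± 0.32, and of 11 other Fanconi genes tested 1 rose and 1 fell. Over all genes tested, 13.7% were called higher and 11.6% lower at 100 nM.

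**Figure D3:**
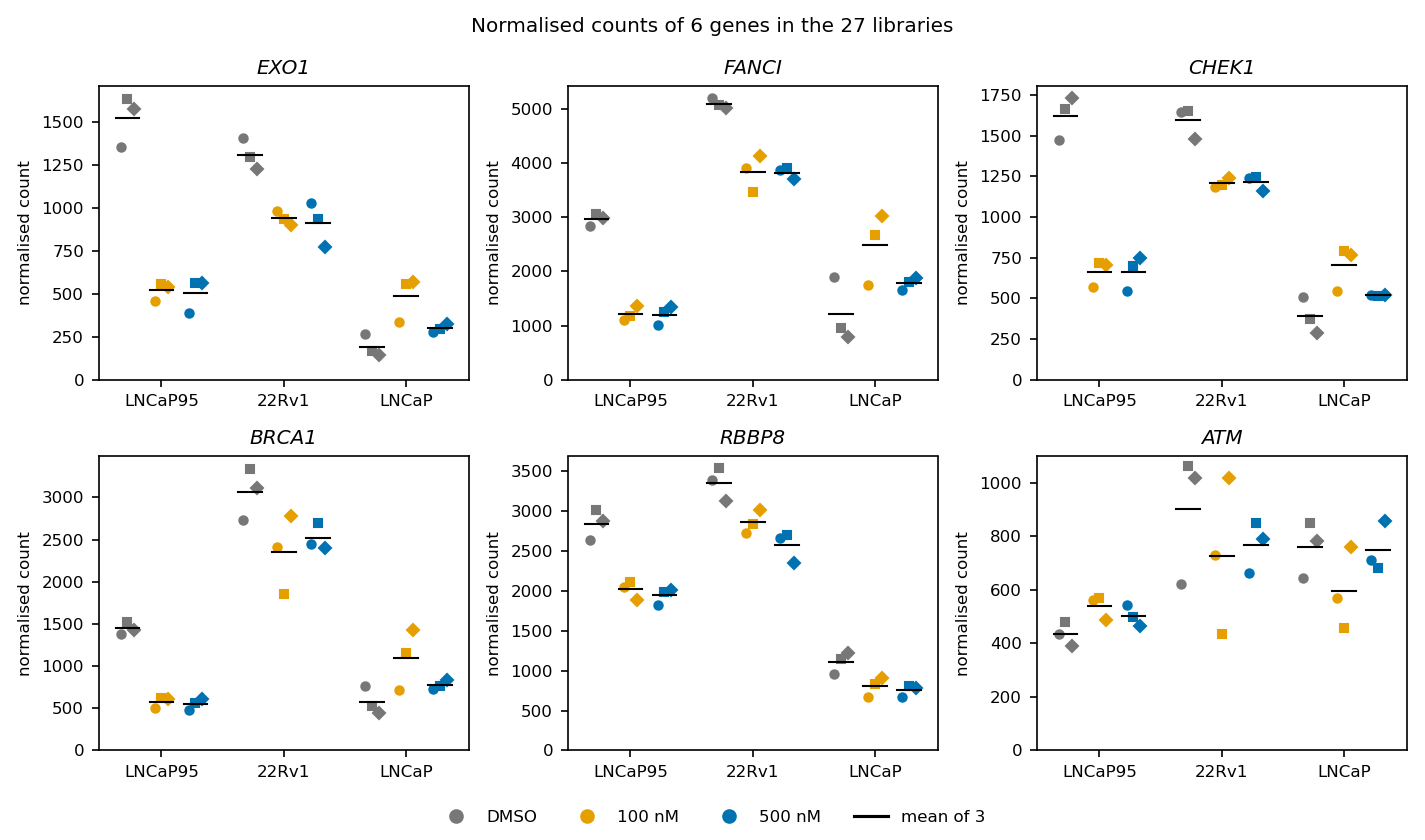
Normalised counts (y axis, from 0) of EXO1, FANCI, CHEK1, BRCA1, RBBP8 and ATM in each library, by line (x axis) and dose (colour); circles, squares and diamonds are replicates 1, 2 and 3 and lines are means of 3. EXO1 in LNCaP95 lies at 388 to 563 at 500 nM and 1355 to 1633 with DMSO, while RBBP8 lies lower in treated than in DMSO libraries in all 3 lines.

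The difference of the drug effect between lines was tested in 1 fit of all 27 libraries. At 500 nM the effect in LNCaP95 was lower than in LNCaP for 24 of the 33 genes and higher for 0, where 19.1% of all genes tested were called lower and 19.8% higher (median difference of log2 fold changes -1.38). It was lower in 22Rv1 than in LNCaP for 13 genes and higher for 0, with 7.52% of all genes lower and 6.79% higher (median -0.615). With libraries scaled to the same total it was lower for 19, where 13.5% of all genes were called lower and 3.68% higher. Without 1 library at a time this count was 8 to 20 (20 without LNCaP DMSO replicate 1, 8 without LNCaP DMSO replicate 2, 8 without LNCaP DMSO replicate 3 and 8 without 22Rv1 500 nM replicate 3). It was lower in LNCaP95 than in 22Rv1 for 16 genes and higher for 0, with 12.4% of all genes lower and 13% higher (median -0.72). At 100 nM the effect was lower in LNCaP95 than in LNCaP for 24 genes and higher for 1, with 22.3% of all genes lower and 23.2% higher (median -1.66). It was lower in 22Rv1 than in LNCaP for 21 genes and higher for 0, with 10.5% lower and 8.59% higher (median -1.05), and lower in LNCaP95 than in 22Rv1 for 16 and higher for 0, with 12.3% lower and 12.3% higher (median -0.70). With libraries scaled to the same total, the counts at 500 nM were 24 for LNCaP95 against LNCaP and 12 for LNCaP95 against 22Rv1, all lower, and at 100 nM 24, 23 and 12, all lower, in the order above. In those fits 23.1% and 9.34% of all genes were called lower at 500 nM, and 25.3%, 16.4% and 9.66% at 100 nM. BRIP1 had the largest difference at 500 nM, -2.53 ± 0.41, adjusted p = 3.71e-05 between LNCaP95 and LNCaP by limma.

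The effect of 500 nM averaged over the 3 lines was called for 5 of the 33 genes, all lower, where 9.86% of all genes were called lower and 13% higher. They were RBBP8 (-0.49 ± 0.06, adjusted p = 2.51e-05), FANCA (-0.49 ± 0.11, adjusted p = 0.00336), FANCE (-0.37 ± 0.10, adjusted p = 0.0112), PALB2 (-0.36 ± 0.10, adjusted p = 0.015) and XRCC3 (-0.56 ± 0.18, adjusted p = 0.0307) by limma. RBBP8 was the single member called in the same direction at 500 nM in each of the 3 lines. For XRCC3, PALB2 and FANCA the calls differed between the lines. XRCC3 fell by 1.44 ± 0.12 on the log2 scale in LNCaP95, and its log2 fold change was -0.43 ± 0.16, adjusted p = 0.13 in 22Rv1 and 0.18 ± 0.18, adjusted p = 0.497 in LNCaP, where it was called higher at 100 nM (0.68 ± 0.18, adjusted p = 0.0169). With the replicate block the average for XRCC3 was -0.56 ± 0.22 and no longer called (adjusted p = 0.0991), and 4 genes were called. PALB2 was called in LNCaP95 and 22Rv1 and had -0.05 ± 0.14, adjusted p = 0.838 in LNCaP, and FANCA was called in LNCaP95 alone, with -0.32 ± 0.11, adjusted p = 0.112 in 22Rv1 and -0.15 ± 0.14, adjusted p = 0.46 in LNCaP. FANCE, called in no line alone without the replicate block, had 103, 106 and 108 normalised counts at 500 nM against 106, 149 and 152 with DMSO in LNCaP95. In 22Rv1 it had 216, 180.0 and 202 at 500 nM against 271, 252 and 242 with DMSO. In LNCaP it had 260.0, 237 and 199.6 at 500 nM against 388, 307 and 239.9 with DMSO. Its groups overlapped in LNCaP95 and LNCaP and not in 22Rv1. Without LNCaP DMSO replicate 3, 12 of the 33 genes were called lower; without each of the other libraries in turn the count was 4 or more.

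The step of 500 nM over 100 nM called 0 of the 33 genes in each line by limma, edgeR and DESeq2. In LNCaP95 and 22Rv1 0 genes had an unadjusted p under 0.05, and in both 0% of all genes tested were called. In LNCaP 5 of the 33 genes had an unadjusted p under 0.05, 0.00779% of all genes tested were called higher and 0% lower, and the median was -0.29. With replicates 2 and 3 of LNCaP only, 14 genes were called lower at 500 nM than at 100 nM, where 2.93% of all genes were called lower and 3.03% higher. That choice drops the 100 nM library with the lowest mean of the 33 genes (8.80 against 9.20 and 9.33). It thus favours lower calls at 500 nM, and the count of 14 is a description only. Without 1 library at a time the median in LNCaP was -0.488 (without replicate 1 of 100 nM) to -0.179 (without replicate 3 of 100 nM), with 0 genes called by limma in each case. A p that misses the threshold does not show that the doses act alike: for EXO1 in LNCaP the step was -0.66 ± 0.24, adjusted p = 0.379 by limma.

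Without drug, most of the genes stood at a lower level in LNCaP than in the castration-resistant lines. LNCaP95 with DMSO had 25 of the 33 higher and 6 lower than LNCaP with DMSO, where 34% of all genes tested were called higher and 32.5% lower (median 1.055, against 0.007 over all genes). EXO1 had 1355, 1633 and 1573 normalised counts in LNCaP95 against 264, 167 and 145 in LNCaP, the largest difference (3.02 ± 0.19, adjusted p = 1.18e-12). FANCB had 309, 329 and 320.3 against 62.3, 29.4 and 44.0 (2.86 ± 0.25, adjusted p = 3.03e-10). The DMSO libraries of these genes did not overlap between the lines. BRIP1, BRCA2 and BLM followed, with log2 differences of 2.33 ± 0.30, 2.25 ± 0.27 and 2.11 ± 0.24. The 6 genes lower in LNCaP95 were FANCE, ATM, RAD50, MRE11A, ATR and NBN, with FANCE at 106, 149 and 152 against 388, 307 and 239.9. With libraries scaled to the same total, which moved the median of all genes to 0.21, 26 genes were higher and 4 lower, with 42.8% of all genes higher and 24.9% lower.

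In 22Rv1 with DMSO 26 genes were higher and 3 lower than in LNCaP with DMSO, where 39.3% of all genes tested were higher and 35.5% lower (median 1.57). BRIP1 had 721, 1051 and 1100.5 normalised counts in 22Rv1 against 237, 78.7 and 69.96 in LNCaP (3.09 ± 0.30, adjusted p = 1.07e-09). BLM had 1008, 1097 and 1039 against 218, 127 and 91.9 (2.93 ± 0.24, adjusted p = 4.52e-11). EXO1 and RAD51AP1 also lay higher, by 2.81 ± 0.19 and 2.81 ± 0.22 on the log2 scale. BARD1 went the other way, with 297, 435 and 406 in 22Rv1 against 1937, 2269.7 and 2215 in LNCaP (-2.51 ± 0.13, adjusted p = 1.18e-14). MRE11A did so too, with 134, 129 and 119.6 against 728, 674 and 659.6 (-2.42 ± 0.14, adjusted p = 1.32e-13). For both genes the lines were separated without overlap. ATR was the third gene lower in 22Rv1.

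Between the castration-resistant lines, LNCaP95 with DMSO had 5 genes higher and 16 lower than 22Rv1 with DMSO, where 35.4% of all genes tested were higher and 40.8% lower (median -0.24, against -0.07 over all genes). BARD1 had 4400.3, 4774 and 4637 normalised counts in LNCaP95 against 297, 435 and 406 in 22Rv1 (3.62 ± 0.13, adjusted p = 9.33e-18), the largest difference of a member between DMSO libraries of any 2 lines. MRE11A had 377, 437 and 464 against 134, 129 and 119.6 (1.73 ± 0.14, adjusted p = 6.98e-11). Lower in LNCaP95 were UBE2T, with 1027, 861 and 861 against 3607, 2557 and 3048 (-1.73 ± 0.15, adjusted p = 2.51e-10), RAD50, with 1192, 1104 and 1389.7 against 3769, 4136 and 3505, and FANCL, with 259, 339 and 278 against 895, 904 and 892. No DMSO library of one line reached those of the other for these genes. The 20 proliferation genes were all higher in LNCaP95 than in LNCaP (median 2.26) and in 22Rv1 than in LNCaP (median 2.28), and between LNCaP95 and 22Rv1 3 were higher and 5 lower.

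**Figure D4:**
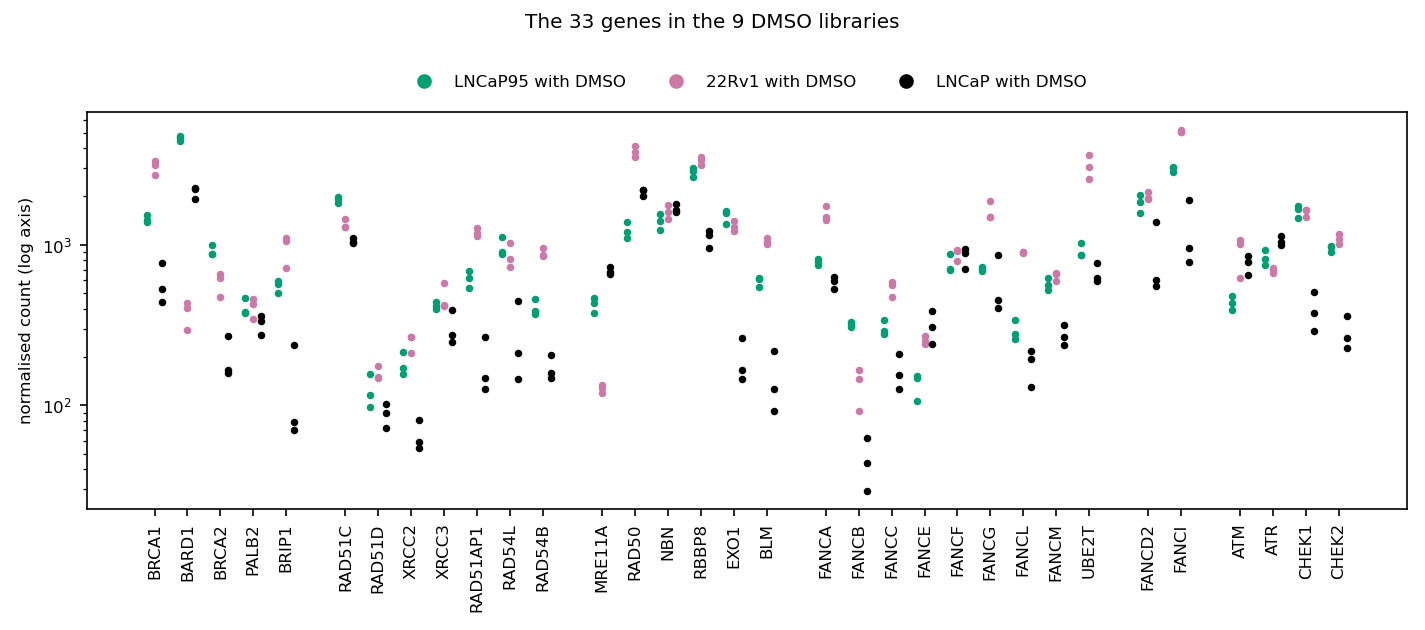
Normalised counts (y axis, log scale) of the 33 genes in the DMSO libraries of LNCaP95, 22Rv1 and LNCaP, 3 points a line. EXO1 lies at 1355 to 1633 in LNCaP95 and 145 to 264 in LNCaP, and BARD1 at 297 to 435 in 22Rv1 and 1937 to 2270 in LNCaP.

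Levels can be compared between genes only per length, and here the DMSO level per kilobase of the longest principal transcript in GENCODE v29 was used, matched by symbol for 33 of 33 genes (MRE11A by its current name). UBE2T had the highest such level in each line, 1009 ± 106 normalised counts per kilobase in LNCaP95, 3382 ± 579 in 22Rv1 and 732 ± 104 in LNCaP (SD, n = 3). In LNCaP95 it was followed by RBBP8 at 863 ± 58.5 and BARD1 at 837 ± 34.4, within each other's spread. In 22Rv1 FANCI at 1081 ± 19.7 and RBBP8 at 1017 ± 64.5 followed. In LNCaP the next were RAD51C at 406 ± 15.4 and BARD1 at 389 ± 32.5. The lowest level in each line was that of RAD51D, whose long transcript model of 9988 bases lowers this value. BRCA2 stood at 76.5 ± 6.2 in LNCaP95, 49.0 ± 8.2 in 22Rv1 and 16.5 ± 5.2 in LNCaP. Sources used here do not state whether counting used strand, and exons of 14 members overlap exons of another annotated gene, so their values are uncertain, among them FANCI with POLG, FANCA with ZNF276, XRCC3 with KLC1 and MRE11A with ANKRD49. RAD51D with RAD51L3-RFFL and RAD54B with FSBP are among the overlaps on the same strand, where strand would not separate the reads. CHEK2, BRCA1 and FANCD2 have pseudogene copies that may share reads, and their values are uncertain for the same reason.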

How the data were processed

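RNA-seq of 27 libraries was analysed from a deposited table of normalised values, a signal made from read counts with a size factor for each library. Reads were aligned with STAR 2.3.1z4 to hg19, counted with featureCounts and normalised with DESeq, per the submitters' processing notes, and libraries were poly(A)-selected, directional and paired-end, per the labels' protocols. The strand setting of the counting is not stated in the sources used here. Of the deposited values, 100% were whole multiples, within 1e-06, of what 1 read is worth in their library, so reads could be recovered.

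The values were tested as log2(value + 1) with limma 3.58.1 (R 4.3.3, trend), keeping genes with a value of at least 10 in at least 3 of the libraries fitted. Tests were two-sided, with Benjamini-Hochberg adjustment over all genes tested and a threshold of 0.05. Each line was fitted with its 9 libraries; the shared effect was fitted on the 18 libraries of DMSO and 500 nM with line as a term; differences between lines and untreated levels used 1 fit of all 27. A pseudocount makes fold changes of low genes smaller. The fits of 500 nM against DMSO within each line were tested on simulated counts, without outlying libraries or shared deviations of replicates. The other fits were not simulated. Alternatives were a pseudocount of 8, no filter, edgeR 4.0.16 and DESeq2 1.42.0 on the recovered reads, libraries scaled to the same total, the replicate number as a block, each library left out, and replicates 2 and 3 of LNCaP only.

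Libraries with the same replicate number deviated together in LNCaP95, where 9 of 9 correlations exceeded 0.1 (0.128 to 0.47), so the numbers were read as pairs there; the labels do not say what a number marks. Named genes were, per comparison of a dose with DMSO, up to 10 called members with the largest log2 fold change and, per role, the member with the highest mean; up to 5 in other comparisons, and up to 4 per further list. Other genes named were chosen after their values were seen. The members and lists were chosen with earlier results of these data known. Some items are not reported here.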

Additional observations from a re-analysis of the deposited data

Results flagged for a closer look

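The drug effect differed between lines by an interaction test in 1 limma fit of all 27 libraries, and these differences are listed as log2 values with no explanation. At 500 nM, 24 of the 33 genes differed between LNCaP95 and LNCaP, led by BRIP1 (-2.53), BLM (-2.45), EXO1 (-2.30), RAD54L (-2.24) and XRCC2 (-2.20). Between 22Rv1 and LNCaP 13 differed, led by BRIP1 (-1.60), FANCB (-1.23), RAD54L (-1.23), EXO1 (-1.22) and RAD51AP1 (-1.18). Between LNCaP95 and 22Rv1 16 differed, led by BLM (-1.46), XRCC2 (-1.20), BRCA1 (-1.12), FANCD2 (-1.11) and EXO1 (-1.08). In the same order, 19.1%, 7.52% and 12.4% of all genes tested were called lower, and 19.8%, 6.79% and 13% higher. The count of 13 was 8 to 20 with 1 library left out.

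At 100 nM, 25 genes differed between LNCaP95 and LNCaP, led by EXO1 (-2.89), RAD54L (-2.86), BLM (-2.83), BRIP1 (-2.64) and XRCC2 (-2.40). Between 22Rv1 and LNCaP 21 differed, led by BRIP1 (-1.94), EXO1 (-1.82), RAD54L (-1.77), BRCA2 (-1.65) and BLM (-1.57). Between LNCaP95 and 22Rv1 16 differed, led by BLM (-1.26), UBE2T (-1.20), RAD54L (-1.09), RAD54B (-1.08) and XRCC2 (-1.07). In the same order, 22.3%, 10.5% and 12.3% of all genes tested were called lower, and 23.2%, 8.59% and 12.3% higher. Within a line both doses share the DMSO libraries, so the lists at the 2 doses are not independent.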

How the results depend on the processing

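In LNCaP95, 24 to 28 of the 33 genes were called at either dose in every alternative that left out 1 library, and 26 to 29 at 500 nM in the others. With the replicate block, whose pairing is read from the data, 29 were called at 500 nM and 27 at 100 nM in LNCaP95. In LNCaP 6 of 9 same-number correlations exceeded 0.1 (-0.003 to 0.389), against 2 of 18 between different numbers. In 22Rv1 it was 4 of 9, against 5 of 18. The numbers were not read as pairs in these lines, although LNCaP libraries with the same number partly deviated together. With the replicate block 5 genes were called in LNCaP at 500 nM and 23 at 100 nM. In 22Rv1 it was 7 at 500 nM and 4 at 100 nM. The block also ended single calls at unchanged log2 values: RAD51AP1 in LNCaP at 100 nM (0.88, adjusted p (limma) = 0.0525), RAD54B in 22Rv1 at 500 nM (-0.43, 0.0526), XRCC3 in the average over the lines (-0.56, 0.0991) and BARD1 in the difference at 500 nM between LNCaP95 and 22Rv1 (-0.50, 0.0555). In LNCaP at 500 nM, 6 genes were called by DESeq2 and 20 with replicates 2 and 3 only, against 3 by limma on all libraries, and 0 to 17 with 1 library left out. In LNCaP at 100 nM 6 to 24 were called with 1 library left out. For the step of 500 nM over 100 nM in LNCaP, 14 were called with replicates 2 and 3 only, a choice that drops the lowest 100 nM library. In 22Rv1 at 100 nM, 8 were called by DESeq2 and 12 with equal totals, and with 1 library left out 0 to 9 at 100 nM and 1 to 7 at 500 nM. The effect common to the lines gave 4 to 12, and the difference at 500 nM of 22Rv1 from LNCaP 8 to 20. The causes were not tested. For genes called in the main fit, over all comparisons, 3955 values under alternatives kept their direction and call. A further 325 kept the direction and lost the call, and 0 reversed. Calls gained are not counted there, and losses were uneven. With 1 library left out, 33 of 48 calls were lost in 22Rv1 at 500 nM and 12 of 24 at 100 nM. In LNCaP 9 of 18 were lost at 500 nM and 63 of 138 at 100 nM. In LNCaP95 3 of 156 were lost at 500 nM and 8 of 162 at 100 nM. Among all genes called at 500 nM, the share called higher with equal totals was 69% in LNCaP and 26.7% in 22Rv1. Without that scaling it was 52.8% and 49.8%. With equal totals the median of all genes was -0.104 in 22Rv1 at 100 nM. It was -0.143 and -0.124 in the differences of 22Rv1 from LNCaP at 500 and 100 nM. In untreated LNCaP95 and 22Rv1 against LNCaP it was 0.213 and 0.106. With 3 libraries a group, small changes may not be detectable.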
